A study of Mus musculus with 5 samples.

Results

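Gkn3, Tff1, Tff2, Tff3, Agr2, Pigr, Ctse, Muc1, Cldn18 and Mmp7 are genes of the gastric mucosa and of the metaplastic, mucin-producing ducts that form pancreatic intraepithelial neoplasia (PanIN). They were taken by gene symbol from the RNA-seq count tables of pancreatic acinar cells, where all 10 were found among 23284 symbols. The knockout group comprised 3 libraries of primary acinar cells, which secrete the digestive enzymes of the pancreas, of genotype Arid1afl/fl;p48-Cre, where both floxed copies of Arid1a, which encodes a subunit of the SWI/SNF chromatin remodelling complex, are targets of Cre. The control group comprised 2 libraries from p48-Cre mice, which carry the Cre allele alone. All mice were C57BL/6 and 8 weeks old, and the cells of both groups recovered in serum-containing medium before RNA extraction. The p48 (Ptf1a) promoter is active in embryonic pancreatic progenitors, so the deletion is not restricted to acinar cells by the promoter. Replicate numbers are given without a statement on which animals they stand for. The p-values therefore reflect library-to-library spread alone, possibly technical.

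Mucous epithelia such as that of the stomach secrete mucins together with small, disulfide-rich trefoil peptides (Tff1, Tff2 and Tff3) that stabilise the mucus gel and promote epithelial repair. Agr2, a protein disulfide isomerase of the endoplasmic reticulum, is needed for mucin folding, and Pigr carries polymeric immunoglobulins across the cell into the lumen. The normal acinar cell makes digestive enzymes rather than mucus. In mice with pancreatic injury, acinar cells can turn into duct-like cells, and PanIN lesions take on a gastric programme with Tff2, Ctse, Cldn18, Muc1 and Agr2, while Mmp7 marks metaplastic ducts.

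The libraries of the groups differed strongly in depth. Without Rn45s, the ribosomal RNA precursor, and Lars2, which was left out with it, the knockout libraries held 3155357, 3568906 and 3345121 counts and the control libraries 67514 and 72006. Values in CPM are counts scaled to 1000000 of these totals. A level of 3 counts, taken as the floor of detection, corresponded to 0.841 to 0.951 CPM in the knockout libraries and to 44.4 and 41.7 CPM in the control libraries, or to 21.5 CPM over both controls together. Rn45s took 6.78% to 10.9% of the deposited counts in the knockouts and 72.6% and 82.2% in the controls, so genotype and library quality cannot be told apart in any contrast between the groups. Arid1a itself had 44, 121 and 42 counts in the knockouts and 0 and 3 in the controls, and the table gives 1 value for the whole gene, so reads from a deleted exon cannot be separated and the value checks no label. Ctrb1, chymotrypsinogen and an acinar marker, stood at 165920 to 233072 CPM in the knockouts and at 142711 and 139016 CPM in the controls. Acinar markers went both ways, and the median fitted log2 fold change, knockout over control, of the 11 tested was 0.04. Cel, a lipase of that list, averaged 4834 CPM in the knockouts and 23403 CPM in the controls.

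Promoter windows of 250 bases upstream of an annotated start were matched by symbol for 6 of the 10 genes (RefSeq, build GRCm38.p6, a later build than the mm9 named for the counts). The windows of Gkn3, Mmp7 (the first of 2) and Muc1 are shown. Gkn3 and Mmp7 had the highest knockout means of the genes without a control count. Muc1 was counted in both groups at overlapping levels. Each window runs 5′ to 3′ on the strand of the gene and ends at the base before the start. Capitals mark matches to any of 5 motifs, searched on both strands. The motifs were TATAAA for the TATA box, TGANTCA for AP-1 factors, TGTTTAC for FOXA factors, AGATAA for GATA factors and CTTTGAT for TCF/LEF factors, and no match in these windows overlapped another.
Gkn3 (chr6:87388936-87389185, minus strand): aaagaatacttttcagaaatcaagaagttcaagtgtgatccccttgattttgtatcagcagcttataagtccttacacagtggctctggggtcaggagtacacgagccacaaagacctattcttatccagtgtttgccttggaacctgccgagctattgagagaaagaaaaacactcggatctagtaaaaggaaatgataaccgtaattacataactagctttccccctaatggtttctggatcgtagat
Mmp7 (chr9:7691840-7692089, plus strand): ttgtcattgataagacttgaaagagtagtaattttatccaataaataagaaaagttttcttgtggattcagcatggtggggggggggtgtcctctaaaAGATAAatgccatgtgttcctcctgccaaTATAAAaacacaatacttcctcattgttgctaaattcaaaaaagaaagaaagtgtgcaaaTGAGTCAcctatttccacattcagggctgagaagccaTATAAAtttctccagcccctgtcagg
Muc1 (chr3:89228806-89229055, plus strand): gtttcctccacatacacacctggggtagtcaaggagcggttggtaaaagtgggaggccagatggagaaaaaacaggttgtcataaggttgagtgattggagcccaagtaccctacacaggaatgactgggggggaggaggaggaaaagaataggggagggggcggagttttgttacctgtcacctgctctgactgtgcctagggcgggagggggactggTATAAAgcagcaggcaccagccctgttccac
The Mmp7 window shown held the AP-1 letters at position -63 and TATAAA at positions -26 and -123, counted back from the start. It also held the GATA letters at position -152, and the Muc1 window held TATAAA at position -31. The second Mmp7 window, not shown, held the TCF/LEF letters on the opposite strand at position -247 from its own start. Of the Cldn18 windows, also not shown, the first held the GATA letters at position -131 and, on the opposite strand, at -146. The second held the TCF/LEF letters at position -227 from its own start. The windows of Pigr and Agr2, not shown, held no match. No match to any of these motifs was found in the Gkn3 window, which says only that these letters are not in it. Among 32851 promoter windows of the same length, TATAAA occurred in 12.4%, TGANTCA in 6.75%, AGATAA in 9.99%, CTTTGAT in 3.21% and TGTTTAC in 3.17%. These matches describe the sequence and are not shown to be binding sites.

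**Figure D1:**
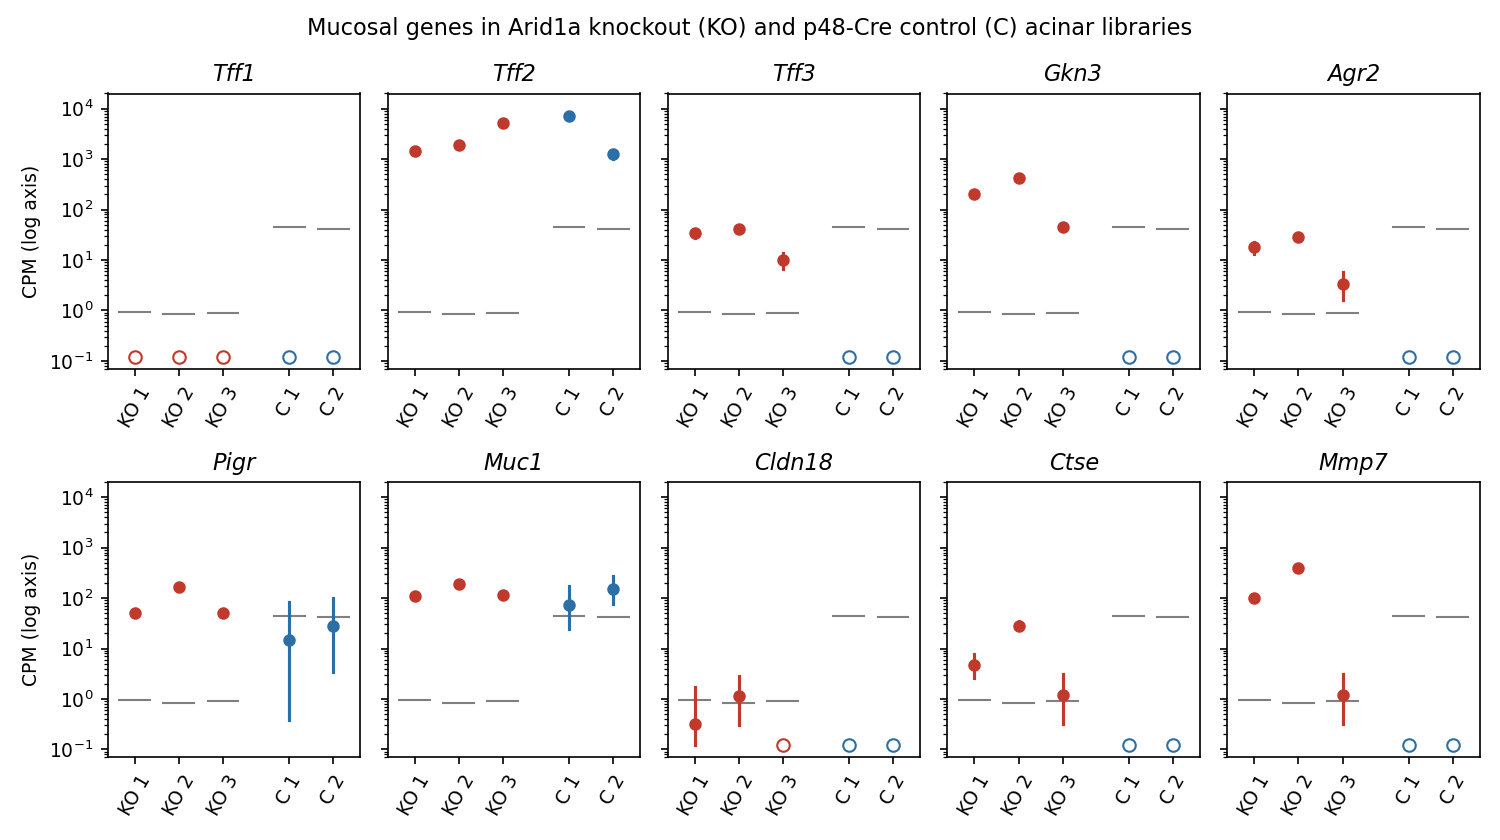
Level of each of the 10 mucosal genes in CPM (log axis) in the 3 knockout libraries (KO, red) and the 2 control libraries (C, blue). Points are single libraries with exact 95% Poisson intervals of the count, open circles at the bottom are libraries with 0 counts (bars stop at their height), and grey bars are the level of 3 counts; Gkn3 and Mmp7 have no control count, while Tff2 and Muc1 overlap between the groups.

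The trefoil genes behaved unlike one another. Tff2, which gastric neck cells and duodenal Brunner's glands secrete, had the highest level per kilobase of exon of the 10 genes in every library. It stood at 1453, 1887 and 5132 CPM in knockout libraries 1, 2 and 3, and at 7080 and 1264 CPM in control libraries 1 and 2. The highest and the lowest value were both from controls, so the groups overlapped fully. Tff2 averaged 2824 ± 2010 CPM in the knockouts (SD, n = 3) and 4172 ± 4113 CPM in the controls (SD, n = 2). The quasi-likelihood test of edgeR across all genes gave a log2 fold change of -0.56 ± 0.67 (SE) with an adjusted p of 0.637, and without control 1 the sign turned, to 1.16 with an adjusted p of 0.779 (0.250 to 1.00 over the alternatives). The sign also turned with TMM, RLE or upper quartile factors and with totals without enzymes. Tff2 was not called, and its RNA was readily counted in control acinar libraries, at 478 and 91 counts. In bulk RNA, more cells of a type and more RNA per cell cannot be told apart.

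Tff3, the trefoil peptide of intestinal goblet cells, was present in each knockout library at 33.6, 40.3 and 9.87 CPM and had 0 counts in both controls. Over both controls, 3.92 counts would have been expected at the pooled knockout level, near the exact 95% upper limit of 3.69 for 0 counts. The knockout mean of 27.9 ± 16.0 CPM (SD, n = 3) was 1.30 times the floor over both controls, or 1.01 times without knockout 2. Tff3 was not called (adjusted p = 0.458, edgeR). Tff1, the trefoil peptide of gastric pit cells, had no count in any of the 5 libraries. The exact 95% upper limit for 0 counts was up to 1.17 CPM in a knockout library and up to 54.6 CPM in a control library. The only trefoil gene seen in both groups was therefore Tff2.

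Gkn3, a gastrokine secreted by mucous cells of the mouse stomach, was the 1 gene of the 10 called higher in the knockout. It had 633, 1483 and 149 counts in the knockout libraries, equal to 201, 416 and 44.5 CPM, and 0 counts in both controls. Each knockout library lay above the level that 3 counts would give in the controls, although knockout 3 did so narrowly. At the pooled knockout level 31.4 control counts would have been expected. The knockout mean of 220 ± 186 CPM (SD, n = 3) was 10.2 times the floor over both controls, or 5.70 times without knockout 2. Of the 8291 genes tested, 16 (0.193%) were called higher and 133 (1.6%) lower at an adjusted p under 0.05, 1.8% in either direction, and Gkn3 was among the 16 with an adjusted p of 0.0306 (edgeR). With TMM factors on the same counts the split was 147 higher and 71 lower. It passed the low-count filter through the knockout libraries alone. The adjusted p over the alternatives ran from 0.00980 to 0.866, and the call was lost in 7 of 15, among them TMM factors on all deposited counts (0.0572), limma-voom, and the fits without control 1 (0.0712), control 2 (0.0867), knockout 1 (0.866) or knockout 2 (0.141).

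Absence from the controls was not peculiar to Gkn3. Among the 442 tested genes for which the knockout level predicted at least 10 control counts, 43 (9.73%) had none, and among the 126 with at least 30 predicted counts 7 (5.56%) had none. Gkn3 belonged to both sets. Mmp7, with 23.8 predicted counts and 0 observed, belonged to the 43.

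Mmp7, matrilysin, a secreted protease of metaplastic pancreatic ducts, had the widest ratio of highest to lowest knockout library of the 8 members counted in all 3. It had 314, 1403 and 4 counts in knockouts 1, 2 and 3, equal to 99.5, 393 and 1.20 CPM, and 0 counts in both controls. Knockouts 1 and 2 lay above the level of 3 counts in either control, whereas knockout 3 lay far below it. The mean of 165 ± 204 CPM (SD, n = 3) was 7.66 times the floor over both controls. That ratio was 2.34 without knockout 2 and 11.5 without knockout 3. Mmp7 was not called (adjusted p = 0.0623, edgeR) and passed without a low-count filter (adjusted p = 0.0428), with the filter of 1 CPM in 2 libraries (adjusted p = 0.0424) and without knockout 3 (adjusted p = 0.0222), in a range of 0.0222 to 1.00 over the alternatives. In the later annotation Mmp7 exons overlap those of AV064505, a gene on the opposite strand, and the kit did not mark strand, so reads of that gene could be included.

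Pigr, the polymeric immunoglobulin receptor, was counted in all 5 libraries. It had 161, 599 and 173 counts in the knockouts (51.0, 168 and 51.7 CPM) and 1 and 2 counts in the controls (14.8 and 27.8 CPM). All 3 knockout levels were above both control levels, though the control values rest on 3 counts in all. The ratio of pooled levels was 4.31 with an exact 95% interval of 1.47 to 20.9, which covers counting error only. The test across libraries gave a log2 fold change of 2.07 ± 1.54 (SE) and did not call Pigr (adjusted p = 0.573, edgeR). The log2 fold change was 1.26 without knockout 2, 3.75 and 3.80 with TMM factors on all and on the reduced counts and 3.34 with RLE factors, and the adjusted p ran from 0.0559 to 1.00 over the alternatives.

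Muc1, a membrane mucin of the apical surface of pancreatic and gastric epithelium, overlapped between the groups. It had 109, 190 and 117 CPM in the knockouts and 74.1 and 153 CPM in the controls, with the controls spanning knockouts 1 and 3. The means were 139 ± 44.5 CPM in the knockouts (SD, n = 3) and 113 ± 55.7 CPM in the controls (SD, n = 2), and knockout over control gave 1.23 on pooled counts (exact 95% interval 0.752 to 2.15). The log2 fold change was 0.29 ± 1.17 (SE; adjusted p = 0.902, edgeR) and fell just below 0 without control 1 (-0.14) or without knockout 2 (-0.0047), whereas it was 2.23 and 2.27 with TMM factors on all and on the reduced counts and 1.82 with RLE factors, with no call. A difference in Muc1 was thus not detected, and its estimate depended on the scaling, which does not show that its level was unchanged.

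The other gastric and PanIN markers were scarce. Agr2 had 17.7, 28.9 and 3.29 CPM in the knockouts and 0 counts in both controls, and its knockout mean of 16.6 ± 12.8 CPM (SD, n = 3) lay under the floor of the controls. Ctse, cathepsin E, an aspartic protease of gastric surface cells, had 4.75, 28.3 and 1.20 CPM in the knockouts and 0 counts in both controls, with knockout 2 alone above the floor over both controls. Cldn18, a claudin with stomach and lung isoforms that gene counts do not separate, had 1, 4 and 0 counts in the knockouts and 0 counts in both controls. No fold is given for these genes, since at this depth a lower level in the controls was not detectable. Agr2 and Ctse were tested and not called (adjusted p = 0.537 and 0.582, edgeR), and Cldn18 and Tff1 did not pass the low-count filter.

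Counted over the list, 7 of the 10 genes had no control count and 8 had counts in all 3 knockout libraries. The 7 include Tff1 and Cldn18, which were not tested, and 2775 of all 8291 tested genes (33.5%) had no control count. Of the 8 mucosal genes tested, 6 had every knockout library above both controls, against 2950 of all 8291 tested genes (35.6%). For Gkn3, Tff3, Agr2, Ctse and Mmp7 that ordering follows from the controls being at 0, and the depth at which they passed the filter came from the knockouts, so the count is not support for a change.

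Per kilobase of exon, on the lengths of the later annotation, Tff2 averaged 4835 CPM per kb in the knockouts, and Gkn3 257 and Mmp7 154 CPM per kb followed. Muc1 (59.2), Tff3 (56.7), Pigr (22.4), Agr2 (12.9) and Ctse (3.60 CPM per kb) came next, followed by Cldn18 at 0.108 CPM per kb and by Tff1, which was at 0. Gkn3 spanned 52.0 to 485 and Mmp7 1.12 to 368 CPM per kb over the knockout libraries, so their ranges overlapped, although Gkn3 was above Mmp7 in each of the 3. The ranges of Muc1, at 46.5 to 81.0, and Tff3, at 20.0 to 81.8 CPM per kb, also overlapped, with Muc1 the higher in knockout 3 alone. Of neighbours in this order, the knockout ranges were separate only for Tff2 above Gkn3 and for Ctse above Cldn18. The range of Tff2, 2489 to 8787 CPM per kb, lay above that of every other member. In the controls, Tff2 had 12123 and 2164 CPM per kb, Muc1 31.6 and 65.1, and Pigr 3.68 and 6.90 CPM per kb.

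The knockout libraries differed from each other over the whole transcriptome, and the mucosal genes followed that difference in part. Digestive enzymes together with granule proteins made up 78.9%, 67.4% and 87.2% of the total without Rn45s and Lars2 in knockouts 1, 2 and 3. Among 6587 genes with at least 50 counts over the knockouts, 90.5% were highest in knockout 2, 83.4% were lowest in knockout 3, and 79.5% ran in the order knockout 2, 1, 3. Of the 8 mucosal genes that reached 50 counts, 7 were highest in knockout 2, 5 were lowest in knockout 3, and 5 ran in that order, namely Gkn3, Tff3, Agr2, Ctse and Mmp7. These are single libraries, so no test was made, and the pairs that follow share libraries.

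**Figure D2:**
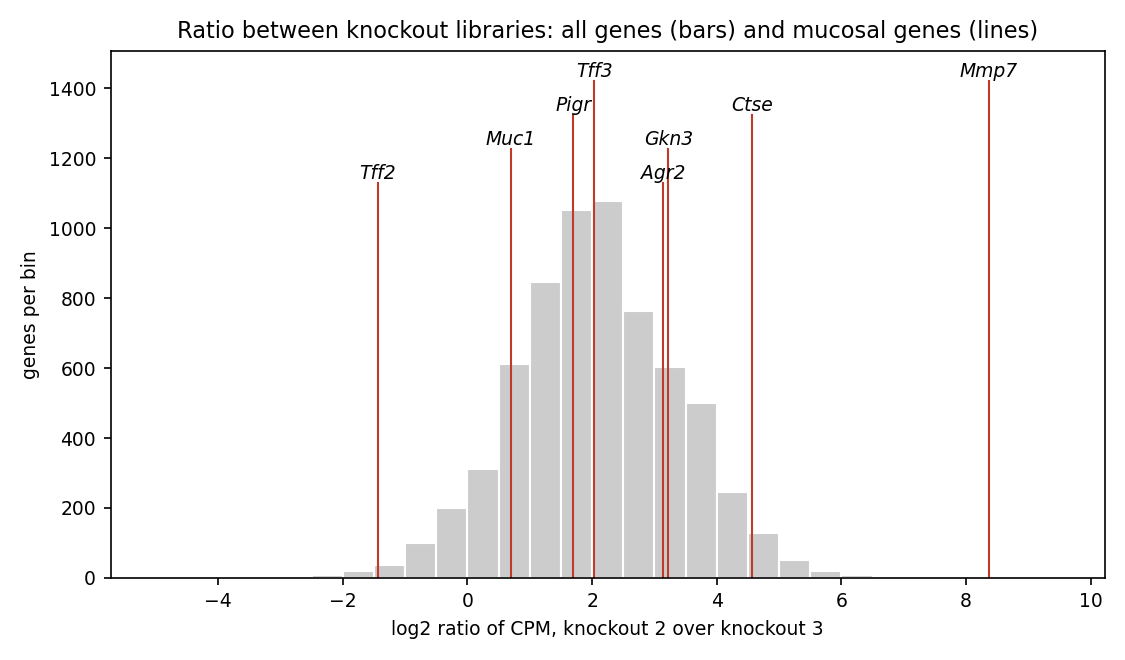
Distribution of the log2 ratio of CPM in knockout 2 over knockout 3 for 6587 genes with at least 50 knockout counts (bars, genes per bin of width 0.5, counts under 3 set to 3), with the 8 mucosal genes that reached 50 counts as red lines. Mmp7 lies to the right of all other genes and Tff2 in the left tail, while Tff3 and Pigr lie near the centre.

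Between knockout 2 and knockout 3, 5 of the 8 genes were at least 4-fold higher in knockout 2, against 51.5% of all 6587 genes, so that share was near the background. Gkn3 was 9.33-fold higher in knockout 2 (exact 95% interval 7.88 to 11.1) and Tff3 4.09-fold higher (2.79 to 6.17), against a median of 4.11-fold over the 6587 genes. Mmp7 stood outside this spread, at 329-fold (128 to 1208), and with counts under 3 set to 3 no other of the 6587 genes had a larger ratio. The same was seen between knockout 1 and knockout 3, where Mmp7 was 83.2-fold higher in knockout 1 (32.2 to 307), again with no gene above it on that rule. In that pair 3 of the 8 genes were at least 4-fold higher, against 21.5% of all genes.

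Ctse was 23.7-fold higher in knockout 2 than in knockout 3 (8.96 to 88.5), on 101 and 4 counts, and 5.95-fold higher in knockout 2 than in knockout 1, on 101 and 15 counts. Between knockouts 2 and 1 it was the 1 gene of the 8 past 4-fold, which 6.19% of all genes passed. Tff2 went the other way, with a ratio of 0.368 for knockout 2 over knockout 3 (0.357 to 0.378), and 36 of the 6587 genes had a lower ratio. Muc1 stood at 1.62 (1.43 to 1.84) in that pair, below the median gene. With enzymes left out of the library total, a scaling added after the data were seen, 2 of the 8 genes were at least 4-fold higher in knockout 2 than in knockout 3, against 16.9% of all genes. Mmp7 then stood at 129-fold, Ctse at 9.26, Gkn3 at 3.65, Agr2 at 3.43, Tff3 at 1.60, Pigr at 1.27, Muc1 at 0.633 and Tff2 at 0.144. On that scale no member was 4-fold higher in knockout 2 than in knockout 1, where Ctse had a ratio of 3.85, and Tff2 (0.840) and Tff3 (0.777) turned below 1.

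Over the 1199 genes with at least 50 counts in each knockout library, the profile of Tff2 across the 3 knockouts was nearest, by Euclidean distance of the shares, to those of Prdx4, Gamt and St6galnac4. Prdx4, a peroxiredoxin of the endoplasmic reticulum, had 50.4, 64.4 and 176 CPM in knockouts 1, 2 and 3. Gamt, an enzyme of creatine synthesis, had 19.0, 26.6 and 65.8 CPM, and St6galnac4, a sialyltransferase, had 16.2, 23.8 and 65.8 CPM. With 3 points per gene this likeness is a description only. Zg16, a zymogen granule protein that goblet cells also make, was likewise highest in knockout 3, with 12839, 9394 and 18700 CPM in the knockouts and 13153 and 7569 CPM in the controls.

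Other genes of the gastric mucosa ranged from 0 to 358 counts in a library, and 4 of the 22 found in the tables had no count in any library. Gkn2 had no count in any library, Gkn1 had none in the knockouts and 4 and 0 counts in the controls, and Muc5ac, the mucin of gastric pit cells, had 2 counts in knockout 2 and none elsewhere. The gel-forming mucin of gastric neck cells, Muc6, had 79, 358 and 2 counts in the knockouts (25.0, 100.3 and 0.598 CPM) and 0 and 5 counts in the controls, and was not called (adjusted p = 0.936, edgeR). Pgc, progastricsin of chief cells, had 20.6, 67.2 and 8.37 CPM in the knockouts and 59.2 and 139 CPM in the controls (adjusted p = 0.582, edgeR). In all, 7 of 22 listed genes found in the tables were tested and none was called. Their median log2 ratio of pooled levels, with pools under 3 counts set at 3, was -0.51, against -1.44 over all tested genes. Under this rule a gene with fewer than 3 control counts is set at 21.5 CPM in the controls. A median below 0 on this scale therefore does not show lower levels in the knockouts.

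Transcription factors and sensors of mucous cells, 14 tested of 22, also gave no call (median -1.23 on the same scale). Elf3, an epithelial Ets factor, had 86.2, 319 and 20.0 CPM in the knockouts and 207 and 13.9 CPM in the controls. Foxa3 had 55.1, 77.3 and 87.6 CPM in the knockouts and 88.9 and 0 CPM in the controls. Intestinal goblet and membrane mucin genes had 3 tested of 13, with none called (median 0.40). Spink4 of goblet cells had 23.5, 42.9 and 27.5 CPM in the knockouts and 0 counts in the controls.

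Relatives of the individual members were examined in the same way. Of the other claudins and junction genes 15 of 19 were tested and none was called (median -0.48). Cldn4 had 124, 443 and 8.07 CPM in the knockouts and 44.4 and 55.6 CPM in the controls, and Cldn3 148, 294 and 34.4 CPM in the knockouts and 74.1 and 0 CPM in the controls. Both had their lowest knockout value in knockout 3. Other metalloproteinases and their inhibitors gave 7 tested of 16 and no call (median -1.51). Mmp15, a membrane-type metalloproteinase, had 76.7, 137 and 5.98 CPM in the knockouts and 0 and 306 CPM in the controls, and the inhibitor Timp2 22.2, 57.7 and 5.68 CPM in the knockouts and 88.9 and 69.4 CPM in the controls.

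The disulfide isomerases and KDEL receptors around Agr2 gave 18 tested of 19 and no call (median -0.73). Pdia2, the pancreatic isomerase, had 1231, 999 and 2447 CPM in the knockouts and 3007 and 2736 CPM in the controls, and P4hb 524, 617 and 617 CPM in the knockouts and 918 and 208 CPM in the controls. Cathepsins and aspartic proteases gave 12 tested of 14 and no call (median -0.79). Ctsl, a lysosomal cysteine protease, had 632, 595 and 44.2 CPM in the knockouts and 59.2 and 41.7 CPM in the controls (adjusted p = 0.189, edgeR), and Ctsd 330, 484 and 279 CPM in the knockouts and 741 and 181 CPM in the controls. Around Pigr, 11 of 14 plasma cell, B cell and mucosal defence genes were tested and none was called (median -0.64). Lcn2, a bacteriostatic lipocalin, had 237, 130.3 and 17.0 CPM in the knockouts and 14.8 and 0 CPM in the controls. Wfdc2, a secreted antiprotease, had 24.4, 52.7 and 9.57 CPM in the knockouts and 88.9 and 13.9 CPM in the controls.

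**Figure D3:**
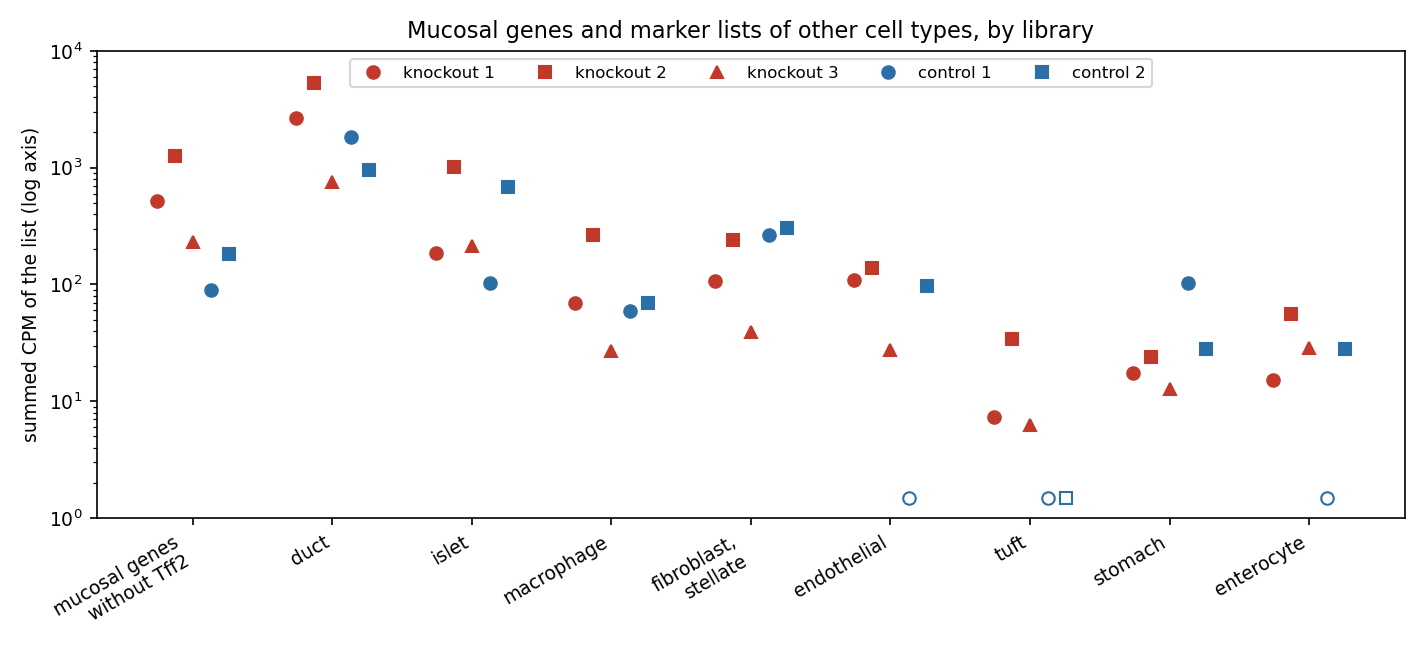
Summed CPM (log axis) of the mucosal genes without Tff2 and of marker lists of other cell types in each library (knockouts red, controls blue; open symbols at the bottom are sums of 0). In the knockouts the mucosal sum and the duct, macrophage, fibroblast, endothelial, tuft and stomach sums are highest in knockout 2 and lowest in knockout 3.

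Summed markers of several other cell types were highest in knockout 2 and lowest in knockout 3, as were most genes (90.5% highest in knockout 2 and 83.4% lowest in knockout 3). The islet and enterocyte sums were lowest in knockout 1 and the neutrophil sum was highest there. All 10 members summed to 1970, 3152 and 5361 CPM in knockouts 1, 2 and 3 and to 7169 and 1444 CPM in the controls, mostly Tff2. Without Tff2, the 9 other members summed to 517, 1265 and 229 CPM in knockouts 1, 2 and 3 and to 88.9 and 181 CPM in the controls, which rest on 6 and 13 counts. The 15 duct and metaplasia markers summed to 2649, 5346 and 752 CPM in the knockouts and to 1822 and 944 CPM in the controls, with 13 tested and none called (median -0.34). All 13 with at least 50 knockout counts were highest in knockout 2 and 12 were lowest in knockout 3. Krt18 had 1415, 2510 and 394 CPM in the knockouts and 696 and 208 CPM in the controls, and Krt8 647, 1135 and 90.0 CPM in the knockouts and 104 and 69.4 CPM in the controls. The part of duct content in the levels of the mucosal genes was not tested.

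The 11 macrophage markers found in the tables summed to 69.1, 265 and 26.9 CPM in the knockouts and to 59.2 and 69.4 CPM in the controls. Cd14 had the highest knockout mean of the list, at 53.9, 204 and 4.48 CPM in the knockouts and 14.8 and 0 CPM in the controls, and C1qa had 8, 33 and 26 counts in the knockouts and 0 and 4 in the controls. The 10 islet markers summed to 185, 1013 and 215 CPM in the knockouts and to 104 and 680.5 CPM in the controls, led by Ins2 (36.1, 336 and 159 CPM in the knockouts and 74.1 and 514 CPM in the controls) and by Sst (71.0, 109 and 12.0 CPM in the knockouts and 0 counts in the controls). Fibroblast and stellate markers summed to 106, 238 and 39.5 CPM in the knockouts and 267 and 306 CPM in the controls, and endothelial markers to 109, 138 and 27.2 CPM in the knockouts and 0 and 97.2 CPM in the controls. Neutrophil markers summed to at most 18.1 CPM and lymphocyte markers to at most 68.4 CPM in a knockout library, and to 0 and 55.6 CPM and 104 and 125 CPM in the controls. No gene of these 6 lists was called, and their part in the mucosal levels was not tested.

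Stomach and gut tissue lie next to the pancreas, and most of their markers were at or near 0 in the knockouts. The 9 parietal, chief and endocrine markers of the stomach summed to 17.4, 23.8 and 12.9 CPM in the knockouts and to 104 and 27.8 CPM in the controls, on 7 and 2 control counts. Atp4b of the parietal proton pump, Gast and Aqp4 had no count in any library. Gif had 23, 37 and 12 counts in the knockouts and 0 in both controls, and Ghrl 20, 32 and 12 counts in the knockouts and 0 and 1 in the controls. The enterocyte markers Fabp1, Fabp2, Apoa4, Alpi and Cyp3a11 had no count in any library. The whole enterocyte list summed to 15.2, 56.3 and 28.4 CPM in the knockouts and to 0 and 27.8 CPM in the controls, with Anpep and Apoa1 leading. Tuft cell markers, which PanIN lesions contain, had at most 33.9 CPM in a knockout library and 0 counts in both controls, and none passed the low-count filter. Dclk1 had 8, 29 and 8 counts and Avil 5, 37 and 0 counts in the knockouts.

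Over the 19 lists, 148 genes other than the members were tested, of which 0 were called higher and 1 lower. Of the 148, 18 had an unadjusted p under 0.05, against 1072 of all 8291 tested genes (edgeR). The gene called lower was Cel, carboxyl ester lipase of the acinar list, at 3429, 5494 and 5580 CPM in the knockouts and 11657 and 35150 CPM in the controls (log2 fold change -2.28, adjusted p = 0.00550, edgeR). Over all 8291 tested genes the fitted log2 fold change had a median of 0.22. By list, the fitted median was -0.46 for gastric genes, -0.22 for mucous cell regulators, -1.47 for metalloproteinases and -0.35 for isomerases. It was 0.40 for goblet genes, 1.03 for claudins and junction genes, 0.40 for cathepsins, 1.67 around Pigr and 1.66 for duct markers. For claudins, cathepsins, the genes around Pigr and duct markers the sign thus differed from that with pools set at 3 counts. The same held for all tested genes (0.22 against -1.44), and for the acinar, enterocyte, neutrophil, fibroblast and endothelial lists.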

How the data were processed

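RNA of primary acinar cells from 3 knockout and 2 control samples was deposited by the authors as raw counts per gene symbol, 1 table per library with 23284 symbols and no header. Build mm9 and the tools Cuffdiff 2.2.1.5, Cuffnorm 2.2.1.2, HTSeq 0.9.1 and TopHat2 2.1.1 are listed, with no role stated, per the submitters' processing notes. Annotation, strand setting and the handling of multi-mapping reads: not given in the sources used here. Libraries came from the TruSeq RNA v2 kit, per the labels' protocols, which selects poly(A) RNA.

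From the counts, edgeR 4.0.16 (R 4.3.3) was used for a quasi-likelihood fit on group alone after filterByExpr, with library totals without Rn45s and Lars2 as sizes, without TMM factors, so that fold changes read on the scale of the CPM values. Calls were made at a Benjamini-Hochberg adjusted p under 0.05 over 8291 genes. SE is the size of the log2 fold change over the square root of F. Alternatives were TMM, RLE and upper quartile factors, totals without enzymes, other filters, DESeq2 1.42.0, limma-voom (limma 3.58.1), a replicate block and each library left out. After these fits, the main fit was also run on counts simulated with known changes and with its own dispersions. Few of the genes simulated with a log2 change of 4 were called. The lack of a call therefore does not show that a gene was unchanged.

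Intervals cover counting error only. They are exact at the 95% level, Poisson for levels and Clopper-Pearson for ratios, computed with SciPy 1.17.1. Floors are a set level of 3 counts and do not cover the spread between libraries. Lengths and overlaps came from GENCODE M21, by symbol. The members, lists and tests were chosen with earlier results of these data known. The genes named were all members and Arid1a, from each list up to 4 called genes or otherwise the 2 genes with the highest mean in the knockouts, genes heading a list with a value of 0, and the 3 nearest in profile to Tff2. Rn45s, Lars2 and Ctrb1, and the stomach, enterocyte and gastric genes listed at 0, were named outside this rule after their values were seen. Of the fibroblast, endothelial, neutrophil and lymphocyte lists only sums are given.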

Additional observations from a re-analysis of the deposited data

How the results depend on the processing

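Gkn3 kept its call in 8 of 15 alternatives and lost it in 7 (adjusted p = 0.0572 to 0.866). Of the 10 genes, none was called with TMM factors on all deposited counts, limma-voom or the replicate block (0 each), 2 were called without a low-count filter and with the filter of 1 CPM in 2 libraries, and 0 to 2 with single libraries left out, where 1 was called with all 5. Without knockout 1 or knockout 2, 5 of the 10 passed the filter and Mmp7 was not tested. Leaving out a single library called 0 to 19 genes higher and 4 to 378 lower over all genes. Higher and lower calls over all genes were 5 and 27 with TMM factors on all counts, 147 and 71 with TMM without Rn45s and Lars2, 47 and 472 with DESeq2, 0 and 43 with limma-voom and 4 and 5 with the replicate block. With limma-voom 773 genes had an unadjusted p under 0.05. Totals without enzymes called 25 higher, and RLE, upper quartile, no filter and the filter of 1 CPM called 81, 354, 898 and 388 lower. In the same order, RLE to the filter of 1 CPM, the genes going up numbered 21, 11, 19 and 19. Those last 2 settings tested 16968 and 10967 genes, and Gkn3 and Mmp7 were among the 19 in each. The same-numbered libraries deviated from their group means with correlations of -0.010 and 0.036. With 2 controls these deviations mirror each other, so the values cannot decide whether the numbers pair the libraries.

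Scaling moved the median log2 fold change over all genes by up to 1.70. The sign of Tff2 turned to 1.84 with TMM on all counts, 1.90 with TMM without Rn45s and Lars2, 1.56 with RLE, 0.48 with upper quartile factors, 0.48 with totals without enzymes and 1.16 without control 1, within -1.33 to 1.16 over single libraries left out. Ctse turned to -0.32 with limma-voom, and Muc1 to -0.14 without control 1, to -0.0047 without knockout 2 (-0.14 to 0.91 over single libraries left out), and between knockouts to a ratio of 0.633 with totals without enzymes, a scaling of that ratio chosen after seeing the data. Summed over the 10 genes, the level of 1970, 3152 and 5361 CPM in knockouts 1, 2 and 3 and of 7169 CPM in control 1 became 9342, 9672, 42045 and 21329 CPM with totals without enzymes, and in control 1 became 1659 CPM of all deposited counts. In control 2 the level of 1444 CPM became 4827 CPM without enzymes and 176 CPM of all deposited counts. The cause was not tested. The depth of the controls limits every contrast, since a gene under 21.5 CPM in them is expected to give fewer than 3 counts over both.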
